A study of Mus musculus with 6 samples.

Results

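The first 4 days of differentiation of female mouse embryonic stem cells were described across genes of the X chromosome, by comparing the day 4 libraries with the day 0 libraries. Genes were kept when the cas and mus reads of both libraries of a day summed to at least 20 at day 0 and at day 4, which held for 349 of the 372 genes of the deposited tables. All cells were of the line 16.7 TST, labelled WT, where the letters TST stay unexplained in the labels, so both groups shared line and genotype and differed in days of differentiation. Day 0 cells (2 libraries) were undifferentiated and grew with serum and LIF on irradiated mouse embryonic fibroblasts (MEFs). Day 4 cells (2 libraries) had been detached from those feeders by trypsin and a period of settling, and had grown as embryoid bodies without LIF on uncoated dishes. The wider study followed the same line to day 7, with 2 more libraries. Whether the libraries of a day stem from different cultures is not labelled. The p-values therefore describe library-to-library spread, shared wholly or partly across genes and possibly technical.

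In female mammals 1 of the X chromosomes of each cell is silenced early in differentiation. Xist, a long noncoding RNA, is transcribed from the X chromosome that becomes inactive, spreads over it and recruits silencing factors, and Tsix, transcribed antisense across Xist, holds Xist back in undifferentiated cells. Jpx and Ftx are noncoding genes beside Xist that are known as activators of it, and Rlim encodes a ubiquitin ligase that promotes Xist expression by removing the repressor REX1. Some genes escape silencing and are read from both chromosomes. The alleles are named cas and mus in the file headers, where Xa stands for the cas part and Xi for the mus part. The mus share is the percent of a gene's allele-specific reads that came from the mus allele, and the total level is the deposited TPM (transcripts counted against all RNA of a library and scaled by gene length).

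Promoters of the noncoding genes whose total levels rose most at the X-inactivation centre are shown because the RNA of all 3 changed several-fold between the days. They are RefSeq sequences of GRCm38.p6, from 250 bases before to 50 bases after the gene start, written 5′ to 3′ on the gene's own strand. Capitals mark matches to GCCATNTT, the core that the factor YY1 is known to bind, searched on both strands. The windows are chrX:103483184-103483483 on the minus strand for Xist, chrX:103493308-103493607 on the plus strand for Jpx and chrX:103623705-103624004 on the minus strand for Ftx.
Xist: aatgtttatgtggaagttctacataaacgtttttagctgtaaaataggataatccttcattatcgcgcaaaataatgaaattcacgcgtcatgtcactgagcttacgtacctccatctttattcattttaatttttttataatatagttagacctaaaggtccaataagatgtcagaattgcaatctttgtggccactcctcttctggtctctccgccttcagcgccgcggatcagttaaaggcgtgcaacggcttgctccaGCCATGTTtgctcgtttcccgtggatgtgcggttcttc
Jpx: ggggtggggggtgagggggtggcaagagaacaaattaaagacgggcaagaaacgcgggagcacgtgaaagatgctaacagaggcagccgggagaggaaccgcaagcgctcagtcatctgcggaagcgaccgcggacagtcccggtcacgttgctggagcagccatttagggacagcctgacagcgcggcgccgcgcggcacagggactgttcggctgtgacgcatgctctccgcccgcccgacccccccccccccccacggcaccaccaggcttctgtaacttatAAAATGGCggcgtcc
Ftx: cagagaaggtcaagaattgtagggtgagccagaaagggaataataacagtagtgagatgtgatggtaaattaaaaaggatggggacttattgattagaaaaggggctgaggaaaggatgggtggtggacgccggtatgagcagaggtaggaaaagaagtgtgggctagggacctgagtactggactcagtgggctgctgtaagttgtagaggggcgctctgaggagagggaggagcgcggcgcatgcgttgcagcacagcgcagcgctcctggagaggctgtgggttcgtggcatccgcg
Xist held 1 match on its own strand, Jpx held 1 on the opposite strand, and the Ftx window held 0. Of all 32851 promoters in RefSeq's set, 6.05% held a match, as did 7.28% of the 1223 on chromosome X and 35 of the 299 promoters matched to members (11.7%). A match is a description of the letters only.

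The 349 genes held 113197 and 123914 allele-specific reads in the day 0 libraries and 156789.5 and 156724.5 in the day 4 libraries, with medians per gene of 134.5, 169, 239 and 224.5. Counts come in steps of 0.5, and 41.4% of all deposited allele counts were not whole. Reads carry no molecular identifiers, so the spread between libraries is the error that is used here. The labelled cell states could be checked only against X-linked markers, since the tables hold no autosomal gene. Of 22 pluripotency and early embryo genes listed 12 were measured, all of them members, and of 17 fibroblast markers listed 7 were measured, 5 of them members. The summed TPM of those 7 fibroblast genes was 909 and 883 at day 0 against 634 and 657 at day 4. The sum does not stand for each gene. The 5 members had a median change of total of -0.16 log2, with 1 called higher, 2 lower and 2 not called. Over all genes tested 41.7% were higher and 36.6% lower.

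The mus allele gave a smaller part of the reads at day 4. Pooled over members, the mus share was 48.4% and 48.4% in the day 0 libraries and 25.1% and 25.3% in the day 4 libraries, a difference of -23.2 percentage points. The libraries of the 2 days did not overlap, and the spread within days was 0.00176 percentage points (SD, n = 2) at day 0 and 0.122 (SD, n = 2) at day 4. An exact two-sided permutation test of 2 against 2 libraries cannot go below p = 0.333, which was the value obtained. The median gene went from 48.1% and 48.2% to 20.3% and 20.4%. Without Xist, which alone took 9147.5 of the day 4 reads, the pooled share went from 48.3% to 23%, and without the fibroblast list from 48.1% to 25.6%.

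**Figure D1:**
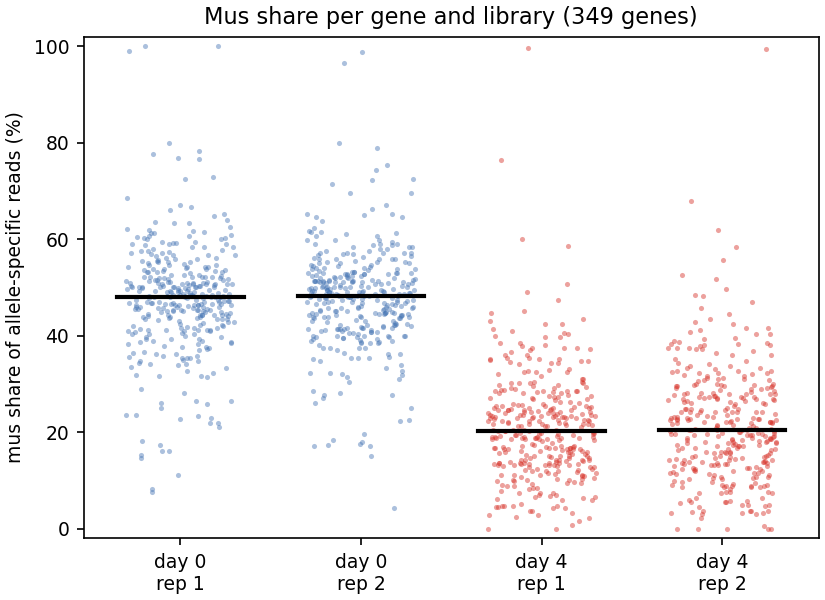
Mus share of allele-specific reads (percent, vertical axis) of each of the 349 genes in each day 0 and day 4 library, with a black bar at the median. The medians are 48.1% and 48.2% at day 0 and 20.3% and 20.4% at day 4, and genes spread from near 0 to near 100% on both days.

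Gene by gene, the mus share fell in 315 of the 349 members and rose in 3 by edgeR's quasi-likelihood test at an adjusted p of 0.05 over all 372 genes. Among all genes tested 88.4% were called lower and 0.806% higher. The spread behind the share calls was shared almost wholly across genes, with 3 residual degrees of freedom per gene, so these adjusted p-values may be too small. At day 0, 259 members had a mean mus share from 40% to under 60%, and 18 had less than 30%. At day 4, 44 members were under 10%, 124 from 10% to under 20%, 118 from 20% to under 30% and 18 at 40% or more. The members' spread at day 4, with quartiles at 13.6% and 27.3%, was wide around the median. Shares of the same gene on the 2 days had a Spearman correlation of 0.33 across the 349 genes, which share libraries and depth and are not replicates. Set against the median gene of each library, 61 members fell further and 82 fell less or rose (18.5% and 22% of all genes tested).

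The level read from the cas allele was higher at day 4 and that from the mus allele lower. Splitting each gene's TPM by its shares gave summed cas-allele levels of 16176 and 15102 TPM at day 0 and 20565 and 20397 at day 4, a ratio of 1.31. Summed mus-allele levels were 14949 and 14460 TPM at day 0 and 6270 and 6530 at day 4, a ratio of 0.435. Neither allele's libraries overlapped between days. The total went from 31125 and 29562 to 26834 and 26927 TPM, a ratio of 0.886. The median TPM of a member went the other way, from 45.8 and 46.6 to 54.7 and 52.9. Each of these sums gave the smallest exact p of 0.333.

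Of the 349 members, limma called the cas-allele level higher in 210 and lower in 42 (61.8% and 11.6% of all genes tested), and the mus-allele level higher in 6 and lower in 284 (2.42% and 78% of all). The median member changed by 0.55 log2 on the cas allele, 1.46-fold, and by -1.10 log2 on the mus allele, 0.467-fold. Its total changed by -0.02 log2, or 0.988-fold. Both changes were called, cas higher and mus lower, in 158 members, whose total was called higher in 84, lower in 19 and neither in 55. Another 86 members had a lower mus-allele level with no call on the cas allele, and 40 were lower on both. These calls depend on the TPM scale. TPM counts a gene against all RNA, and when each library was set to its median gene, the median change of total over all 372 genes moved from 0.01 to -0.19 log2. For the allele levels this scaling used the median gene of the same allele in each library. By construction it takes out a change common to the genes of that allele, so its counts are no check of the TPM scale. So scaled, the cas allele was called higher in 97 members and lower in 150 (30.4% and 41.1% of all genes). The mus allele was called higher in 71 and lower in 82 (24.2% and 22.3%).

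**Figure D2:**
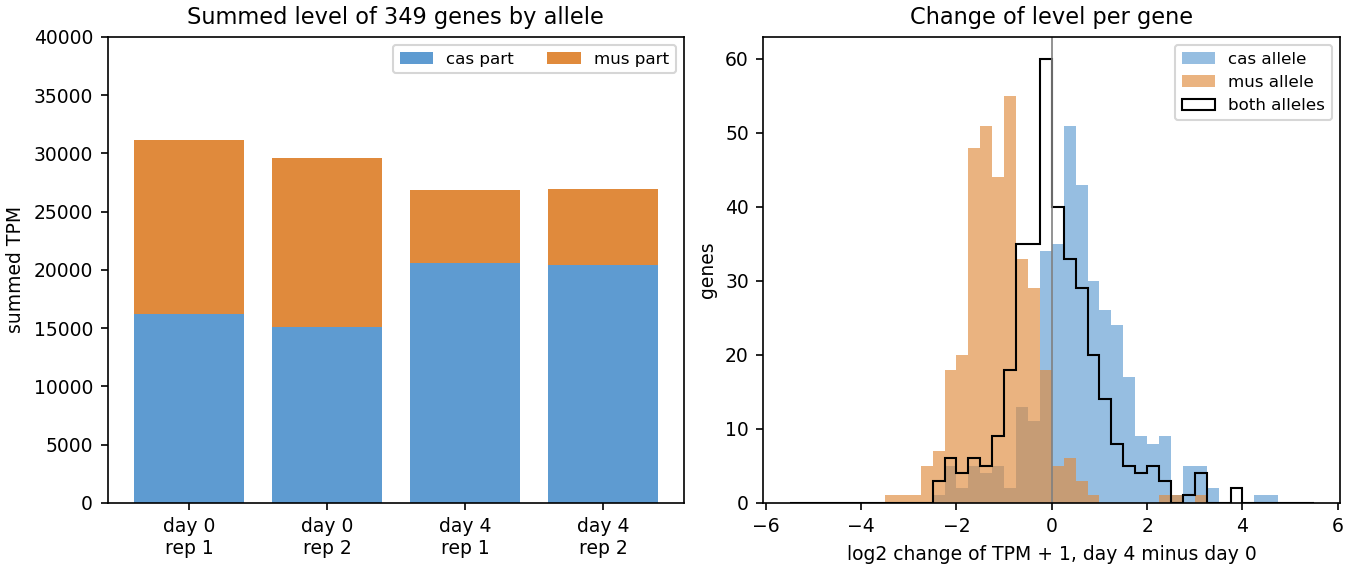
Left, summed TPM of the 349 genes in each library (bars from 0), divided into the cas and the mus part. Right, the number of genes (vertical axis) by log2 change of TPM + 1 from day 0 to day 4 for the cas allele, the mus allele and both together. The cas part grew to 20565 and 20397 TPM, the mus part shrank to 6270 and 6530, and the distribution of totals lies between those of the alleles.

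Total levels rose in 136 members and fell in 134 by limma on log2(TPM + 1), against 41.7% higher and 36.6% lower among all genes tested. Relative to the median gene the split was 106 higher and 173 lower (33.3% and 47.3% of all genes). With edgeR on the allele-specific reads it was 130 higher and 135 lower (39.5% and 36.8%). That fit takes its scale from these X-linked genes alone, which tends to even out rises and falls. It is therefore no check of the TPM scale. The spread behind these calls was shared almost wholly across genes, with 2 residual degrees of freedom per gene, so the adjusted p-values may be too small. Genes whose total rose had a lower median mus share at day 4 than those whose total fell. The 136 higher genes had a median mus share of 47.1% ± 0.494 (SD, n = 2) at day 0 and 14.6% ± 0.757 at day 4. The 134 lower genes had 48.9% ± 0.40 and 25.7% ± 1.03, and the 79 genes not called had 48.1% ± 0.189 and 21.9% ± 0.244. Across the 349 genes the log2 change of total and that of the mus odds had a Spearman correlation of -0.51, given without a test since both come from the same libraries.

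**Figure D3:**
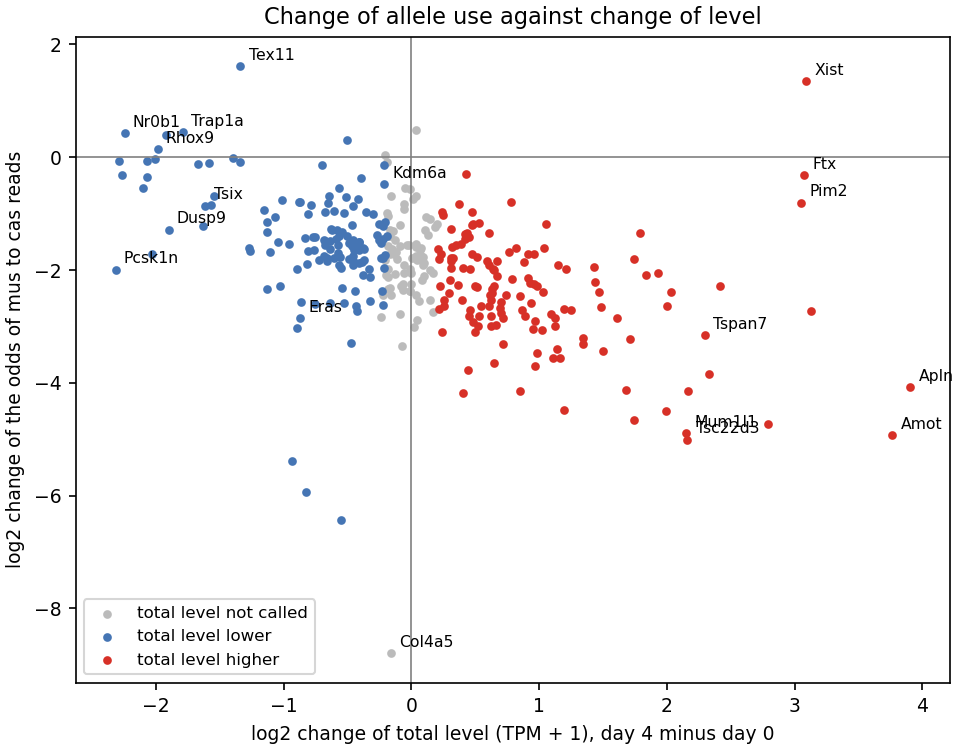
Log2 change of the mus to cas odds (vertical axis) against log2 change of total TPM + 1 (horizontal axis), day 4 minus day 0, 1 point per gene, coloured by the call on the total. Genes with the largest rises of total, such as Apln and Amot, lie at changes of the odds of -4.07 and -4.93, while Nr0b1, Rhox9 and Trap1a, whose totals fell, lie just above 0. Xist rose in both.

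At the X-inactivation centre, with 5 members of 12 genes listed, Xist and Ftx rose, Tsix and Chic1 fell, and the total of Rlim was not called. Xist had 10.9 and 11.7 TPM at day 0 and 109 and 98.1 TPM at day 4, 9.18-fold (log2 change 3.09, SE 0.11). Nearly all of it was mus: the share was 99.1% and 98.8% at day 0 and 99.6% and 99.5% at day 4, and the mus-allele level went from 11.1 ± 0.539 to 103 ± 7.52 TPM (SD, n = 2). The rise of the share, 1.35 log2 on the odds (SE 0.56, edgeR adjusted p = 0.0393), rests on a few cas reads. It was called neither without day 0 replicate 1, nor without day 0 replicate 2, nor without day 4 replicate 1, nor by DESeq2.

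Tsix, the antisense RNA, stood at 67.1 and 72.5 TPM at day 0 and 19.6 and 25 at day 4 (log2 change -1.61, SE 0.11). It was read mostly from cas on both days, with a mus share of 16.2% and 22.3% at day 0 and of 15.9% and 7.43% at day 4, and its cas-allele level fell from 56.3 ± 0.0517 to 19.8 ± 4.67 TPM. Xist and Tsix overlap on opposite strands, and whether the counting used strand is not given in the sources used here. The fall of the Tsix share (-0.86 log2, SE 0.42, edgeR adjusted p = 0.0461) was not called without day 0 replicate 2, without day 4 replicate 2, or by limma or DESeq2.

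Ftx rose on both alleles. Its total was 7.43 and 7.65 TPM at day 0 and 68.4 and 73.7 TPM at day 4, 9.42-fold. Its mus share was 45.1% and 45% against 40.5% and 38.8%, a change of -0.32 log2 on the odds that was not called (SE 0.31, edgeR adjusted p = 0.33). The cas-allele level rose from 4.14 ± 0.0936 to 42.9 ± 3.14 TPM and the mus-allele level from 3.40 ± 0.0649 to 28.2 ± 0.619. Ftx was among 5 members called higher on both alleles. Jpx, which overlaps Ftx on the opposite strand, was not a member, since it had 3 reads at day 0 and 120 at day 4. Its total was 0.279 and 0.217 TPM at day 0 and 4.74 and 3.8 at day 4, and 71.2% and 67.0% of its day 4 reads were mus.

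Rlim had a total of 219 and 184 TPM at day 0 and 220 and 219 at day 4, with the 2 alleles moving apart. Limma did not call the total, while edgeR on the allele-specific reads called it lower (-0.23 log2, adjusted p = 0.0402) and DESeq2 did not. Those fits take their scale from the X-linked genes alone. The cas-allele level rose from 121 ± 12.3 to 175 ± 2.75 TPM, the mus-allele level fell from 79.7 ± 12.6 to 44.3 ± 3.36, and the share fell from 39.5% ± 1.37 to 20.2% ± 1.47. Chic1, a neighbour of Tsix, fell from 28.1 and 24.9 to 15.5 and 15.7 TPM, with a mus share of 51.1% ± 0.0803 at day 0 and 22.8% ± 0.989 at day 4.

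Genes known to escape silencing are described next, for the 15 members of 18 genes listed. The median share of these 15 went from 50.4% ± 3.87 to 36.2% ± 1.46, beside 48.2% ± 0.117 and 20.3% ± 0.135 for all members. By edgeR the share fell in 13 of 15 and rose in Xist, and by limma the mus-allele level was lower in 7 and higher in Xist and Ftx. Over all genes tested 88.4% were lower in share and 78% lower in mus-allele level. Kdm5c, a demethylase of histone H3 lysine 4, had shares of 53.2% and 51.6% at day 0 and 35.2% and 37.2% at day 4. Its counterpart Kdm6a, which acts on lysine 27, had 53.5% and 47.5% against 43.4% and 41.6%, a fall of 0.47 log2 on the odds (SE 0.16, edgeR adjusted p = 0.0046) that was lost without day 0 replicate 1 and by limma and DESeq2. Both groups of libraries were separate in each gene, and at day 4 both genes stood above the 27.3% that marks the upper quartile of members.

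Other escape genes ranged widely. Ddx3x, an RNA helicase, went from 48.0% ± 0.764 to 36.5% ± 2.32 mus with a total that was not called, from 380 and 326 to 355 and 369 TPM. Eif2s3x, a subunit of translation initiation factor eIF2, went from 37.4% ± 1.71 to 28.6% ± 2.70, again with no call on the total. Utp14a, a ribosomal RNA processing factor, went from 55.7% ± 0.323 to 41.0% ± 0.913. At the other end of the list, Mid1, a microtubule-bound ubiquitin ligase, went from 18.4% ± 1.71 to 1.91% ± 0.465 mus while its total rose from 2.24 and 3.55 to 7.82 and 7.40 TPM. Shroom4, an actin-binding protein, went from 63.6% ± 2.25 to 21.6% ± 0.937 and its cas-allele level rose 6.33-fold, with a mus-allele level of 8.36 ± 0.570 TPM at day 0 and 8.35 ± 0.0619 at day 4. Firre, a noncoding RNA of nuclear organisation, rose from 62.7 and 48.8 to 80.7 and 74.8 TPM as its share fell from 58.2% ± 1.20 to 38.0% ± 0.0102. Syap1 went from 60.8% ± 2.47 to 22.1% ± 1.30 with no call on its total. Of the noncoding or little studied members of the list, 1810030O07Rik went from 71.2% ± 2.41 to 44.0% ± 0.855, 5530601H04Rik from 49.9% ± 3.13 to 30.4% ± 3.11 and 4933407K13Rik from 36.2% ± 3.31 to 13.2% ± 1.21. The day 4 shares of the list thus ran from 1.91% in Mid1 to 42.5% in Kdm6a and 44.0% in 1810030O07Rik, with Xist far above. For Kdm6a and Pbdc1 the TPM and the reads went opposite ways. The totals were called lower in TPM (for Kdm6a not without day 4 replicate 1 or 2, nor by limma without a trend). On the allele-specific reads edgeR called both higher, by 0.46 and 0.29 log2 (adjusted p = 0.000635 and 0.0493). DESeq2 on the reads called Kdm6a higher but not Pbdc1.

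**Figure D4:**
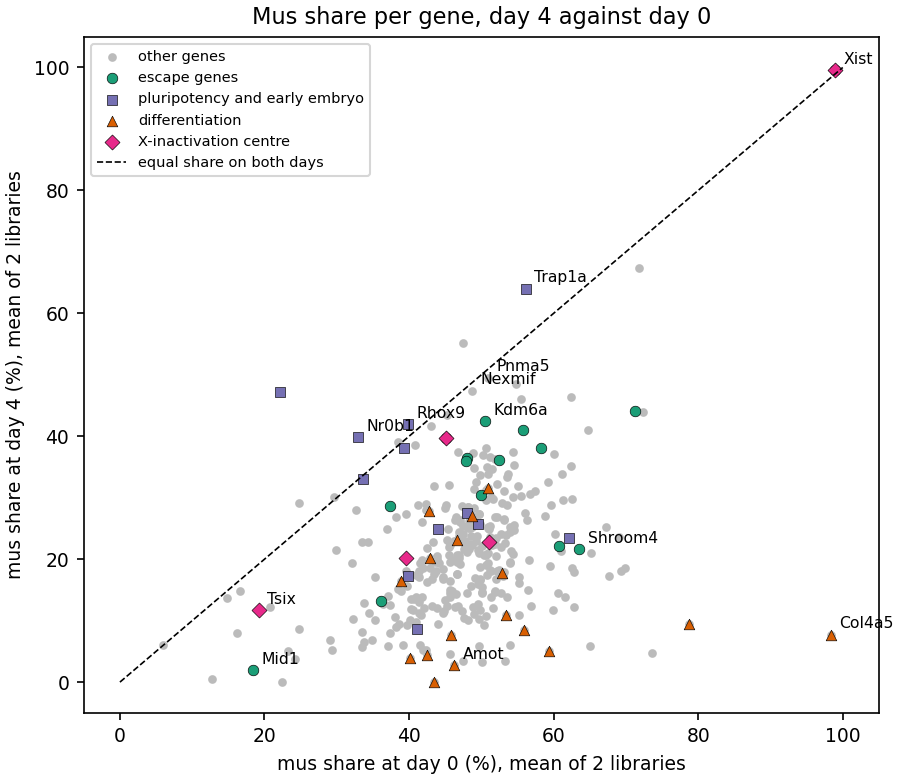
Mean mus share of each gene at day 4 (vertical axis, percent) against day 0 (horizontal axis, percent), with the dashed line at equal shares, and 4 gene lists marked. Most of the 349 genes lie below the line, differentiation genes reach down to shares such as 2.72% for Amot, and several pluripotency genes lie on or above it.

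Nearly all pluripotency and early embryo genes fell in total, and the mus share fell in 6 of 12. By limma 11 of these 12 were lower in total, with a median of -1.51 log2. Relative to the median gene the count was also 11, and by edgeR on the reads it was 12, both on scales set by the X-linked genes alone. Of all genes tested 88.4% were lower in share and 36.6% lower in total. By allele, 8 were lower on cas and 1 higher, and 11 were lower on mus (11.6%, 61.8% and 78% of all genes tested). The share was called lower in 6, higher in 2 and not in 4, and the median share went from 41.4% ± 2.26 to 29.3% ± 1.35. In bulk RNA fewer cells that express a gene and less RNA per cell cannot be told apart.

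Nr0b1, an orphan nuclear receptor of the stem cell network, had 320 and 327 TPM at day 0 and 65.6 and 69.5 TPM at day 4 (log2 change -2.24, SE 0.09). Its mus share was 32.7% and 33.2% at day 0 and 38.5% and 41.2% at day 4, a rise of 0.43 log2 on the odds (SE 0.13, edgeR adjusted p = 0.000792) that limma and DESeq2 did not call. The cas-allele level fell from 217 ± 2.07 to 40.6 ± 0.389 TPM, to 0.187 of its day 0 value, and the mus-allele level from 107 ± 2.93 to 26.9 ± 2.38, to 0.252.

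Homeobox genes of the Rhox cluster were lower in level with no called change of share. Rhox9 stood at 282 and 276 TPM at day 0 and 65.7 and 73.8 at day 4, with mus shares of 35.8% and 43.8% against 41.5% and 42.4%. Rhox6 stood at 218 and 188 TPM against 54.0 and 45.6, with shares of 38.0% and 40.6% against 42.3% and 33.7%. In both genes the levels of the days were far apart, and the shares overlapped. Trap1a, which encodes the tumour antigen P1A, fell from 517 and 422 to 140 and 129 TPM at a share of 56.1% ± 1.10 and 64.0% ± 5.54, which was not called. Trap1a overlaps the noncoding gene Platr21 on the other strand. Xlr3a fell from 30.8 and 35.7 to 12.2 and 11.8 TPM with a share of 33.6% ± 7.91 and 33.0% ± 6.31. Tex11, a meiotic gene, fell from 9.49 and 9.12 to 2.51 and 3.73 TPM, and its called rise of the share rests on day 4 values of 32.5% and 61.9% from 20 and 21 reads. That call was lost without either day 0 library, without day 4 replicate 2, and by limma and DESeq2.

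Other genes of the same list had a lower mus share at day 4. Dusp9, a phosphatase of MAP kinases, went from 553 and 536 to 140 and 150 TPM and from 48.0% ± 0.423 to 27.4% ± 0.918 mus. Eras, a Ras protein of embryonic stem cells, went from 141 and 168 to 84.3 and 83.0 TPM and from 41.1% ± 1.02 to 8.68% ± 2.85, with a cas-allele level of 90.9 ± 9.59 TPM at day 0 and 76.4 ± 3.20 at day 4 that was not called. Eras overlaps Pcsk1n on the opposite strand. Esx1, a homeobox gene of the placenta, went from 44.0% ± 4.02 to 25% ± 2.80 (not called by limma or DESeq2), and the transcription factor Tfe3 from 49.5% ± 0.731 to 25.7% ± 1.45. Morc4 fell to 0.759 of its day 0 TPM (not called without day 0 replicate 1 or day 4 replicate 2) with shares of 39.8% ± 3.35 and 17.2% ± 3.26. Zfp185 was the 1 gene of the list whose total was not called, at 17.2 and 19.6 TPM against 19.6 and 17.0. Its cas-allele level rose from 7.02 ± 1.45 to 14.0 ± 1.03 TPM while its share fell from 62.1% ± 4.36 to 23.4% ± 2.21.

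Differentiation genes had a lower mus share at day 4. The share was called lower in 17 of the 17 that were members, of 36 listed, where 88.4% of all genes tested were lower, and their median share went from 47.7% ± 1.40 to 10.8% ± 3.39. The total was higher in 9 and lower in 5, or 7 and 8 relative to the median gene. On the cas allele 13 were higher and 2 lower, or 8 and 5 relative to the median gene. On the mus allele 12 were lower, or 7 lower and 5 higher relative to the median gene. Over all genes tested 41.7% were higher and 36.6% lower in total, or 33.3% and 47.3% relative to the median gene. On cas 61.8% of all were higher and 11.6% lower, or 30.4% and 41.1% relative to the median gene. On mus 78% of all were lower, or 22.3% lower and 24.2% higher. For each allele the median gene is that of the same allele. Amot, a junction protein of the Hippo pathway, had 10.6 and 12.3 TPM at day 0 and 153 and 184 TPM at day 4, 14.7-fold. Its cas-allele level rose from 6.15 ± 0.560 to 164 ± 20.1 TPM (limma adjusted p = 2.25e-06), its mus-allele level of 5.30 ± 0.653 and 4.62 ± 1.27 TPM was not called, and the share went from 45.7% and 46.8% to 2.43% and 3.01%. The rise of Amot was thus called on the cas allele alone.

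Apln, which encodes the peptide ligand apelin, was called higher on the cas allele alone too. It rose from 6.94 and 7.07 to 107 and 132 TPM, 17.1-fold, with shares of 31.6% and 48.7% at day 0 and 4.18% and 3.67% at day 4. Tspan7, a tetraspanin, rose from 22.7 and 23.9 to 123 and 114 TPM, of which the mus-allele level was 12.4 ± 1.45 at day 0 and 12.8 ± 3.44 at day 4. L1cam, a neural adhesion molecule, rose from 6.06 and 7.92 to 12.7 and 13.9 TPM. Its share of 42.5% ± 7.79 became 4.35% ± 2.32. The heparan sulfate proteoglycans Gpc3 and Gpc4 had no called change of total, at 213 and 207 against 208 and 207 TPM and at 84.0 and 82.5 against 81.6 and 77.0. Their shares fell from 42.8% ± 2.25 to 20.2% ± 1.96 and from 45.8% ± 5.75 to 7.74% ± 1.65. Bex1, a small neural adaptor protein, fell from 946 and 867 to 447 and 482 TPM, lower on both alleles.

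Among further members with large rises, Pim2 and Kctd12b rose on both alleles. Pim2, a serine/threonine kinase, rose from 73.8 and 80.0 to 630 and 660 TPM, the highest day 4 level among the 10 largest rises. Its share fell from 36.7% and 31.9% to 20.4% and 25.1%, yet its mus-allele level rose from 26.3 ± 1.10 to 147 ± 26.3 TPM. Pim2, Ogt and Kctd12b were the 3 members with a lower mus share and a higher mus-allele level. Ogt, the enzyme that adds N-acetylglucosamine to nuclear and cytosolic proteins, went from 123 and 108 to 199 and 197 TPM at 50.2% ± 0.314 and 36.9% ± 0.178 mus. Kctd12b rose from 1.83 and 2.72 to 32.6 and 22.8 TPM, mainly on the cas allele, which went from 1.56 ± 0.0977 to 25.9 ± 7.30 TPM. Lpar4, a receptor for lysophosphatidic acid, rose from 11.4 and 10.8 to 65.9 and 61.3 TPM. Itm2a, a membrane protein, rose from 11.6 and 14.2 to 78.9 and 59.1 TPM, with a share of 49.7% ± 13.8 at day 0 and 5.79% ± 0.358 at day 4. Rtl8b, a gene of retrotransposon origin, was already mostly cas at day 0, at 12.7% ± 6.37, and stood at 0.548% ± 0.152 at day 4 while its total rose 7.40-fold.

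Among members with at least 100 reads on each day, the largest falls of the share were in Tsc22d3, Amot, Mum1l1, Apln and Scml2. Tsc22d3, a glucocorticoid-induced regulator, went from 54.7% and 51.7% mus to 3.58% and 3.22% (-5.01 log2 on the odds, SE 0.39). Mum1l1 went from 51.3% and 49.0% to 3.54% and 2.93%. Scml2, a Polycomb-group protein, went from 44.4% and 40.4% to 6.90% and 3.70%. The total rose in all 5 genes, from 1.61-fold in Scml2 to 17.1-fold in Apln.

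Deep members whose share was not called to change were of 2 kinds in level. With at least 200 reads on each day these were AU015836, Mcf2, Nexmif, Pnma5, Stard8, Taf1 and Trap1a. Pnma5 fell from 222 and 159 to 45 and 42.6 TPM with shares of 50.8% and 51.0% against 50.7% and 48.4%. AU015836 fell from 110 and 95.1 to 19.2 and 21.9 TPM with shares of 31.4% and 33.9% against 28.0% and 27.9%. Both genes were lower on either allele. So was Stard8, with a total of 29.8 and 37.9 against 18.6 and 22.2 TPM and shares of 14.6% and 15.0% against 13.4% and 13.8%. Nexmif, a neuronal gene, had 69.6 and 66.5 against 57.6 and 61.5 TPM and shares of 49.3% and 48.2% against 49.1% and 45.8%. Mcf2, a guanine nucleotide exchange factor, had shares of 39.3% and 37.5% against 39.8% and 38.2%, and Taf1, a subunit of the general factor TFIID, 41.7% and 39.9% against 36.6% and 40.4%. Neither Nexmif nor Mcf2 had a called change of total. Over all members, 31 had no called change of share, and the total of 21 of these was called lower, beside 134 of all 349 members and 36.6% of all genes tested. A call also depends on the number of reads, which is smaller at day 4 in genes whose level fell. Of the 270 members with at least 100 reads on each day, 256 were called lower in share and 2 higher.

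Fibroblast markers are given because day 0 cells grew on feeders. Bgn, a matrix proteoglycan, had 83.8 and 97.9 TPM at day 0 and 1.57 and 2.22 at day 4, and 100% and 99.8% of its day 0 reads were mus. It was excluded for its 17 reads at day 4. Col4a5, a basement membrane collagen, had a mus share of 98.3% ± 2.38 at day 0 and 7.70% ± 7.82 at day 4 at a total of 5.2 and 4.93 against 4.62 and 4.21 TPM, so its mus-allele level went from 4.98 to 0.329 TPM and its cas-allele level from 0.0831 to 4.09. Timp1, an inhibitor of matrix proteases, fell from 188 and 183 to 42.1 and 47.4 TPM at 72.3% ± 0.135 and 44.0% ± 6.11 mus, and overlaps Syn1. All 3 were above the median member in mus share at day 0, but Bgn and Col4a5 were chosen after their values were seen. The median day 0 share of the 5 members of the list was 54.1% ± 0.281, beside 48.2% ± 0.117 for all members. Flna and Msn, which bind actin and are also abundant in other cells, were at 54.0% ± 0.470 and 53.1% ± 1.07 mus at day 0 and 19.4% ± 1.42 and 18.0% ± 0.974 at day 4. Col4a5 and Fhl1 also stand on the differentiation list. All 5 members of the fibroblast list were lower in share, where 88.4% of all genes tested were. In total 1, Fhl1, was called higher and 2, Timp1 and Msn, lower, beside 41.7% and 36.6% of all genes. The call on Msn was lost by limma without a trend and by edgeR and DESeq2 on the reads. The part of feeder RNA in the results of single genes was not tested.

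In lists of housekeeping and signalling genes the counts of lower shares lay near the 88.4% of all genes tested, and totals, of which 41.7% were higher and 36.6% lower over all genes, went both ways. Of 32 chromatin and transcription genes, 30 were lower in share, and the total was higher in 13 and lower in 15 (11 and 19 relative to the median gene). Med14, a Mediator subunit, rose from 48.6 and 54.0 to 110 and 120 TPM. The host cell factor Hcfc1 fell from 347 and 381 to 234 and 253 TPM with shares of 49.3% ± 0.229 and 22.9% ± 0.876, and Nono, a splicing and transcription protein, from 451 and 354 to 270 and 269 TPM with shares of 55.5% ± 2.16 and 46.0% ± 1.31. Morf4l2 was the most highly expressed of the list, at 779 and 653 against 484 and 483 TPM. Its allele shares rest on only 22 and 29.5 reads at day 0. Of 21 RNA processing and translation genes, 20 were lower in share, 2 higher and 7 lower in total. Relative to the median gene 1 was higher and 14 lower. Rps4x, a ribosomal protein, had 582 and 559 against 539 and 561 TPM, no call on the total, and shares of 46.7% ± 4.31 and 37.4% ± 0.0254.

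All 22 mitochondrial and energy metabolism genes were lower in share, with a median of 51.0% ± 0.125 at day 0 and 24.1% ± 0.385 at day 4. Their cas-allele level was higher in 17 by limma, where 61.8% of all genes tested were higher. Relative to the median gene of the cas allele, which takes out a common change, 5 were higher and 7 lower. On that scale 30.4% of all genes were higher and 41.1% lower. Pdha1, of the pyruvate dehydrogenase complex, went from 61.3% ± 0.112 to 29.6% ± 0.607 mus with totals of 272 and 219 against 235 and 234 TPM, the cas-allele level rising from 95 ± 14.2 to 165 ± 1.85. Idh3g, of the citric acid cycle, went from 50.7% ± 0.550 to 38.1% ± 0.903. Neither total was called. Of 20 genes of the ubiquitin system 19 were lower in share, with 9 higher and 7 lower in total (3 and 8 relative to the median gene). Uba1, the main ubiquitin-activating enzyme, fell from 376 and 372 to 237 and 242 TPM with shares of 48.9% ± 0.309 and 37.3% ± 0.132. Huwe1, a large ubiquitin ligase, fell from 382 and 360 to 239 and 256 TPM with shares of 50.6% ± 0.609 and 29.6% ± 0.0387. Of 36 genes of cytoskeleton, adhesion and signalling, 35 were lower in share, and 19 were higher and 12 lower in total (19 and 16 relative to the median gene). Maged1, the highest of them by the mean over both days, fell from 422 and 452 to 321 and 336 TPM, but not by edgeR or DESeq2 on the reads or without day 4 replicate 1. Pls3, which bundles actin, rose from 48.8 and 49.5 to 145 and 132 TPM.

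The largest falls of total were in Pcsk1n, Ripply1, AU015836, Nr0b1, 8030474K03Rik, Pnma5, Rhox1, Timp1, Rhox6 and Rhox9, from -2.32 to -1.99 log2. Pcsk1n, a precursor that inhibits prohormone convertase 1, fell from 115 and 121 to 24.8 and 21.2 TPM and from 44.7% ± 1.47 to 16.8% ± 1.31 mus. Ripply1, a corepressor of somite formation, fell from 105 and 90.8 to 20.9 and 17.7 TPM with shares of 43.0% ± 5.70 and 41.7% ± 1.93. Of these 10, Pcsk1n and Timp1 had a called fall of the share, where 88.4% of all genes tested did. The 10 were picked for their fall of total, which leaves fewer reads at day 4, and a call of the share depends on the number of reads.

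Members were also ordered by day 0 TPM, by distance from Xist and by promoter. The first is not free of the choice of members, since the read minimum removes genes with little day 0 RNA. It left out 18 genes for their day 0 reads alone, so the lowest group by day 0 TPM is cut short. In 4 equal groups by day 0 TPM, from the lowest to the highest, the median day 4 mus share was 13.3%, 18.3%, 22.0% and 26.6%, and the median change of total was 0.65, 0.25, -0.17 and -0.43 log2. The day 0 shares of the same 4 groups lay between 46.3% and 49.6%. The day 0 TPM is part of the change of total, so that the order of the changes is a description only. Medians by distance from Xist lay close together. They were 20.2% ± 0.538 for 47 genes starting within 5 Mb of the Xist start, 20.5% ± 0.449 for 24 from 5 to 20 Mb, 19.4% ± 0.439 for 146 from 20 to 50 Mb and 21.5% ± 0.176 for 132 beyond 50 Mb (SD, n = 2 libraries). For promoters with a ratio of observed to expected CpG of at least 0.6 the median day 4 share was 21.5% ± 0.407 over 175 genes, and for the others 18.9% ± 0.348 over 124. Matches to GCCATNTT were found in 12 of 117 promoters of genes whose total rose, 10 of 111 of those that fell and 13 of 71 of those not called.

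**Figure D5:**
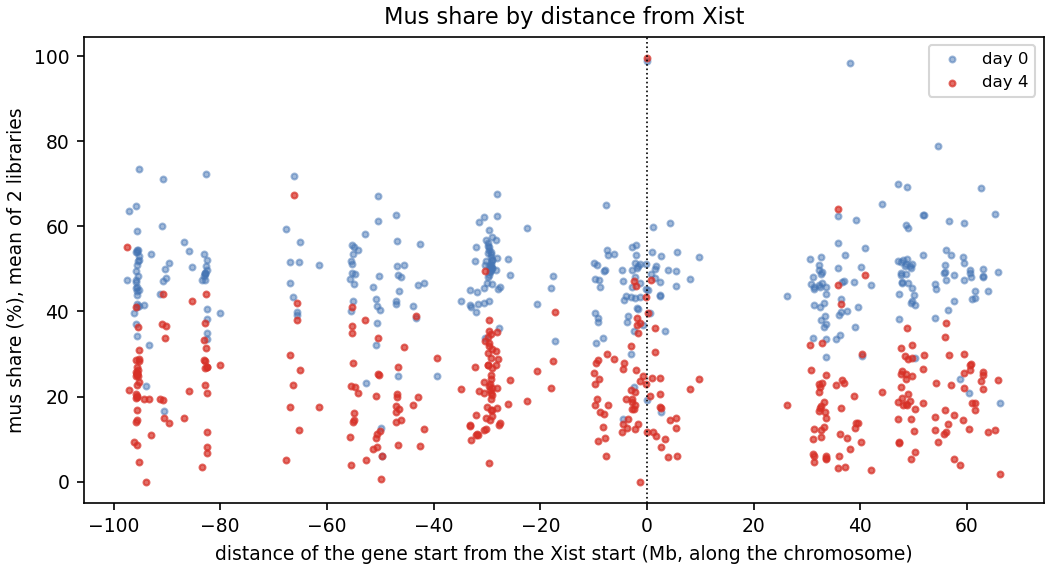
Mean mus share (percent, vertical axis) of each gene at day 0 and day 4 against the distance of its start from the Xist start (Mb, horizontal axis, with the dotted line at Xist). Day 4 values overlapped at all distances, with band medians from 19.4% to 21.5%. The upper quartile was 31.1% within 5 Mb of Xist and 26.1%, 26.3% and 27.7% in the bands further out. Xist itself lies near 100% on both days.

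The read minimum left out 23 genes, most of them for few reads at day 0. Of these, 18 fell short at day 0 alone, 2 (Bgn and Gata1) at day 4 alone and 3 on both days. Their total was called higher in 19 and lower in 2, where 41.7% of all genes tested were higher and 36.6% lower. Falling short at day 0 alone selects genes with more reads at day 4, so this count follows largely from the choice of genes. The members thus leave out genes that were nearly silent at day 0. Fndc3c1 went from 1.17 and 0.990 to 67.1 and 63.4 TPM and Irs4, an insulin receptor substrate, from 1.30 and 1.5 to 55.5 and 42.3 TPM. At day 4 they were 2.44% ± 0.337 and 2.95% ± 0.604 mus. Just outside the minimum lay Lancl3 with 19 reads at day 0, and just inside lay Zbtb33 with 20, whose shares were 51.6% ± 7.77 at day 0 and 12.1% ± 1.56 at day 4.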

How the data were processed

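RNA of 6 libraries (2 each at day 0, day 4 and day 7) was ribosome-depleted and sequenced, per the labels' protocols, with a directional second-strand module. Day 7 entered only the fit of the mus share. The authors deposited estimated counts of cas and mus reads per gene and the fraction of each allele, which equalled shares recomputed from the counts, and a second table in TPM, per the file headers. STAR, HOMER 4.10, limma, edgeR and Trim Galore 0.4.1 are named, with GRCm38 and mm10, per the submitters' processing notes. The sources used here do not give the strand setting of the counting or the choice of the 372 genes, and reads of overlapping genes may be shared.

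Counts were rounded and tested with edgeR 4.0.16 (quasi-likelihood, a term per library, an allele term per day, no scaling between alleles). A share change is the log2 change of the mus to cas odds, with its spread shared across genes. Total, cas-allele and mus-allele levels (TPM times share) were tested with limma 3.58.1 (trend) on log2(value + 1), a scale that understates changes of low genes, in the 4 day 0 and day 4 libraries. Day 7 was left out there because its log2 TPM difference between libraries was a linear function of those of the other days (residual SD at most 1e-12). Adjustment was Benjamini-Hochberg over all 372 genes, with calls at 0.05. A gene with no reads in a library was split by a share from 0.5 added to each allele. Group values are means ± SD over 2 libraries, and folds are ratios of mean TPM. Library sums were compared by exact permutation.

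Members and lists were chosen with earlier results of these data known. Named were every measured gene of 3 lists (X-inactivation centre, escape, pluripotency) and the 10 largest called rises and falls of total. Also named were the 5 largest falls of the share (at least 100 reads per day) and all rises of the share, without that limit. Further ones were the 5 largest rises and falls of the cas-allele level and the 3 highest by TPM of other lists. Members with at least 200 reads per day whose share was not called completed them. Ogt, L1cam, Gpc4, Med14, Pls3, Fndc3c1, Irs4, Lancl3, Zbtb33, Bgn and Col4a5 were chosen after their values were seen. Positions are from GENCODE M21 (GRCm38), which matched all 372 genes, and promoters from RefSeq GRCm38.p6, which matched 320. The tests were checked on simulated data. Alternatives were other tests (DESeq2 1.42.0 among them), pseudocounts, filters, scalings, libraries and a replicate block. Fits of total level on the allele-specific reads took their scale from the 372 genes alone, not from all RNA. Some items that these rules name are not reported here.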

Additional observations from a re-analysis of the deposited data

How the results depend on the processing

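Calls rest on 2 libraries per day and on a spread shared across genes, and low reads limit the shares of genes such as Tex11, Morf4l2 and Cnksr2. Among 349 members, falls of the mus share numbered from 281 (limma) to 319 (day 0 and day 4 libraries only) over other tests, roundings and libraries, and over all alternatives rises of the total from 106 to 138 and falls from 109 to 173. The 3 rises of the mus share became 1 by limma, 0 by DESeq2 (1 at an unadjusted p under 0.05) and from 1 to 2 when each library was left out, with 1 without day 0 replicate 1 or replicate 2. The largest shift came from setting each library to its median gene. It turned the counts to 61 falls and 82 rises of the share, 97 rises and 150 falls of the cas-allele level, and 71 rises and 82 falls of the mus-allele level, a shift that the construction of this alternative brings. The day difference of the summed mus share was -22.8 percentage points for members with 100 reads per day, -25.3 without Xist, -22.5 without the fibroblast list and -27.8 for the median member. The TPM of the median member was 7.61 higher at day 4, while the sum was lower.

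The replicate numbers were tested as a block. Across members, the within-day differences of the days had a correlation of -0.0102 in log2 TPM and -0.0188 in log2 odds of mus. Correlations this small cannot show whether same-numbered libraries shared a culture or a batch, which is not labelled. In TPM the day 7 difference was also a linear function of those of the other days, so the deposited TPM are not independent between days. With the replicate block 311 members were lower and 1 higher in mus share (the rises of Xist and Tex11 were not called), 136 higher and 136 lower in total, 206 higher and 40 lower on the cas allele, and 9 higher and 294 lower on the mus allele.

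Of single genes, relative to the median gene these changes of the mus odds turned positive (log2): Tsix 1.01, Ftx 1.56, Rlim 0.51, Chic1 0.063, Kdm5c 0.93, Kdm6a 1.41, Ddx3x 1.20, Eif2s3x 1.31, Utp14a 1.03, Firre 0.70, Pbdc1 1.18, 1810030O07Rik 0.25, 5530601H04Rik 0.70, 4933407K13Rik 0.019, Tfe3 0.38, Dusp9 0.60, Morc4 0.25, Rhox6 1.84, Xlr3a 1.86, Esx1 0.66, AU015836 1.56, Nexmif 1.80, Pnma5 1.81, Stard8 1.74, Taf1 1.73, Bex1 0.34, Gpc3 0.32, Timp1 0.16, Morf4l2 0.10, Nono 1.34, Hcfc1 0.18, Rps4x 1.33, Idh3g 1.14, Ndufb11 0.59, Klhl13 1.09, Huwe1 0.60, Uba1 1.20, Maged1 0.38 and Pim2 1.08. Those near 0, such as Chic1 and 4933407K13Rik, were not called on this scale. On the same scale the total of Rlim changed by -0.067, of Ddx3x by -0.16, of 5530601H04Rik by -9.69e-05 and of Idh3g by -0.18. By edgeR on allele-specific reads the totals of Rlim (-0.23), Kdm6a (0.46), Ddx3x (-0.16), Pbdc1 (0.29), 5530601H04Rik (-0.21) and Morf4l2 (0.27) changed sign, and by DESeq2 so did Rlim (-0.24), Kdm6a (0.45), Ddx3x (-0.17), Pbdc1 (0.28), 5530601H04Rik (-0.21) and Morf4l2 (0.27). The cause was not tested.

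Values near 0 changed sign elsewhere. With unrounded counts the share of Xlr3a changed by 0.035. Leaving out each library in turn, the log2 change of the mus odds ranged from -0.325 to 0.196 for Rhox6, from -0.11 to 0.38 for Rhox9, from -0.449 to 0.297 for Xlr3a, from -0.0199 to 0.0949 for Mcf2 and from -0.172 to 0.0211 for Nexmif. That of the total ranged from -0.0714 to 0.151 for Ddx3x, from -0.0641 to 0.0388 for Eif2s3x, from -0.11 to 0.0879 for Zfp185, from -0.0404 to 0.0047 for Gpc3, from -0.0268 to 0.0546 for Idh3g and from -0.216 to 0.0955 for Pdha1. None of these changes was called with all libraries. Of all single-gene comparisons with an alternative, 524 for the share, 751 for the total and 109 for the cas-allele level kept direction and side of the threshold.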
